A study of Mus musculus with 6 samples.

Results

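MHC class I molecules display peptides from inside the cell to CD8+ T cells, and nearly every nucleated cell carries them. A heavy chain (H2-K1 or H2-D1 in C57BL/6 mice) pairs with beta 2 microglobulin, the peptides are cut by the proteasome, carried into the endoplasmic reticulum by the transporter of Tap1 and Tap2, and loaded with the help of tapasin (Tapbp). In immune cells and under interferon gamma, Psmb8, Psmb9 and Psmb10 replace the catalytic subunits Psmb5, Psmb6 and Psmb7, which turns the constitutive proteasome into the immunoproteasome, and Nlrc5 is the transactivator of class I genes. In the small intestine both epithelial cells and the intraepithelial T cells that touch them carry class I.

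These 10 genes, B2m, H2-K1, H2-D1, Tap1, Tap2, Tapbp, Psmb8, Psmb9, Psmb10 and Nlrc5, were taken by symbol as one pathway. The rule uses no measured value, but the pathway was picked with earlier results of these data known. Of the 10, 9 could be placed on a row of the deposited table, among 12402 placed genes and 22700 rows. Nlrc5 was not analysed here. The gene identifiers of the table stand beside the values of other genes, so each name below rests on a match between the rank of the identifier and the rank of the row. The match used ranks in K79S and W83S and no comparison of the genotypes.

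The study compared C57BL/6 mice lacking alkaline sphingomyelinase (KO) with wild type C57BL/6 mice (WT), to ask how loss of this gut enzyme alters intestinal gene expression. Libraries K79S, K82S and K86S came from 3 KO mice and W83S, W89S and W90S from 3 WT mice, with RNA of the middle small intestinal mucosa read as 50 bp single-end reads. The study describes the mice as matched in 3 pairs, but which KO mouse was matched to which WT mouse is not given in the sources used here. In the KO mice Cre recombinase had removed exon 2 of Enpp7, the gene for the enzyme. The driver of Cre, the ages and the sexes of the mice are not given in the sources used here.

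Enpp7 read, in FPKM (fragments mapped to a gene, scaled by its length and by the mapped reads of the library), 605 in K79S, 129 in K82S and 669.7 in K86S, against 406 in W83S, 667 in W89S and 495 in W90S. The groups overlapped. The value is for the whole gene and not for exon 2, so it does not check the genotype labels. The values of low genes placed 1 read of K86S at 1.74 times the FPKM of 1 read of W83S, with the other libraries between 1.04 and 1.41 times, so K86S was the shallowest library. K82S and W83S stood apart. The summed FPKM of 10 absorptive epithelium markers was 14998 in K82S and from 21338 to 27961 in the others, and that of 6 gastric markers was 38524 in W83S and at most 5.24 in the others. The epithelial markers did not all go the same way. Fabp2, Fabp1, Apoa4, Alpi, Sis and Lct were lowest in K82S of all libraries. Epcam was highest there, at 1502 FPKM, and Vil1, Cdh1 and Krt20 in K82S were not below the WT range.

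Promoter sequence is shown for the heavy and light chains, Tap1 and Psmb8, because motifs known from class I enhancers were found there and the heavy chains can be compared base by base. They are from RefSeq (GRCm38.p6), where 8 of the 10 members had an entry (all but Tap2 and Nlrc5), and run 5′ to 3′ on the strand of the gene. Capitals mark motif matches on either strand. Starts are those of RefSeq, and GENCODE M21 transcripts that begin farther upstream have an exon of H2-D1 over the H2-D1 stretch, one of Psmb8 over the Psmb8 stretch and one of Psmb9 over the Tap1 stretch.
H2-K1, chr17:34000357-34000497, minus strand, 150 to 10 bases before the start: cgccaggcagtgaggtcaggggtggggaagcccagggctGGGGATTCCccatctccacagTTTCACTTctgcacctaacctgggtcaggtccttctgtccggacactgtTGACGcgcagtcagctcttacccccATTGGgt
H2-D1, chr17:35262923-35262952, plus strand, 171 to 142 bases before the start: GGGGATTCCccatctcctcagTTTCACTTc
B2m, chr2:122147537-122147657, plus strand, 150 to 30 bases before the start: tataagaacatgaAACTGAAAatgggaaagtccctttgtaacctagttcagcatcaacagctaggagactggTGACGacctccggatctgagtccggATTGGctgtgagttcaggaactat
Tap1, chr17:34187460-34187489, plus strand, 96 to 67 bases before the start: cagagacaggTGACGacagagggtcctgcc
Psmb8, chr17:34198088-34198117, plus strand, 107 to 78 bases before the start: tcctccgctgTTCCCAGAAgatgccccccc

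The 250 bases before each start were searched on both strands, and the share of 32851 RefSeq windows of this length with a match is given for each motif. The interferon regulatory factor core AANNGAAA was found in H2-K1, H2-D1 and B2m and in 21.3% of all windows. The kappa B motif GGGNNTTCC was found in H2-K1 and H2-D1 and in 4.98% of windows, and the gamma-activated site TTCNNNGAA in Psmb8 and in 7.02%. TGACG, the core of the cyclic AMP response element, was found in H2-K1, H2-D1, B2m, Tap1 and Psmb9 and in 17.8%, and CCAAT in these 5 genes and Tapbp and in 33.8%. No motif of the 5 was found in Psmb10. The H2-K1 stretch and the matching stretch of H2-D1, 210 to 70 bases before its start, were identical at 128 of 141 bases (90.8%), with an unbroken run of 47. Tap1 and Psmb9 start 225 bases apart on opposite strands, so that their windows overlap and their TGACG and CCAAT are the same bases. These matches are letters in a window and were not tested for binding.

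Of the 10 genes, 7 lie on chromosome 17 in the major histocompatibility complex (GRCm38, GENCODE M21). Psmb9, Tap1, Psmb8 and Tap2 are the 4 protein-coding genes of a block of 34335 bp, chr17:34181987-34216321, which ends 41368 bp from H2-Ab1. Tapbp (chr17:33915899-33929292) and H2-K1 (chr17:33996017-34000347) lie to one side of the block and H2-D1 (chr17:35262730-35267499) to the other. B2m (chr2:122147686-122153083) is on chromosome 2, and Psmb10 (chr8:105935735-105938444) and Nlrc5 (chr8:94434356-94527272) are on chromosome 8.

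Class I genes spanned a wide range of levels in the mucosa. Averaged over the 6 libraries, B2m stood at 2059 FPKM, H2-K1 at 585, H2-D1 at 504, Tapbp at 126, Psmb10 at 124, Psmb8 at 47.2, Tap2 at 23.1, Psmb9 at 17.6 and Tap1 at 12.3 FPKM. In this order the libraries of neighbours did not overlap between B2m and H2-K1, between H2-D1 and Tapbp and between Psmb10 and Psmb8. All other neighbours overlapped.

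In KO mice all 9 members had a higher mean FPKM than in WT mice, and none passed the test. For H2-K1, H2-D1, Tap1, Tap2, Tapbp and Psmb8, every KO library lay above every WT library. These 6 of 9 members compare with 5.90% of the 13089 rows tested whose KO libraries all lay above the WT libraries. The largest mean difference was in Tap1, at 2.09-fold, and the smallest in Psmb10, at 1.03-fold, both on the scale of FPKM + 1. In whole mucosa, more cells of a type and more RNA per cell cannot be told apart. A gene passed the test at a limma adjusted p under 0.05 with a fold change above 1.5 or below 2/3, over all rows. By this rule 0 of 9 members passed, beside 0.00764% of rows in either direction, which is 1 row, the lower Gm29008, named after its values were seen. Without K82S 1184 rows passed, and still 0 of 9 members. At an unadjusted limma p under 0.05, 6 of 9 members were higher in KO mice and 0 lower, beside 2.87% of rows higher and 9.64% lower. Without K79S, W83S or W89S, 1 of 9 was higher at this level. Calls over all rows fell in these fits as well. In either direction, 1638 of 13089 rows were at this level in the reported fit. The numbers were 719 of 12928 rows without K79S, 1115 of 12894 without W83S and 1163 of 12875 without W89S. The median log2 difference was 0.54 over the 9 members and -0.06 over all rows.

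**Figure D1:**
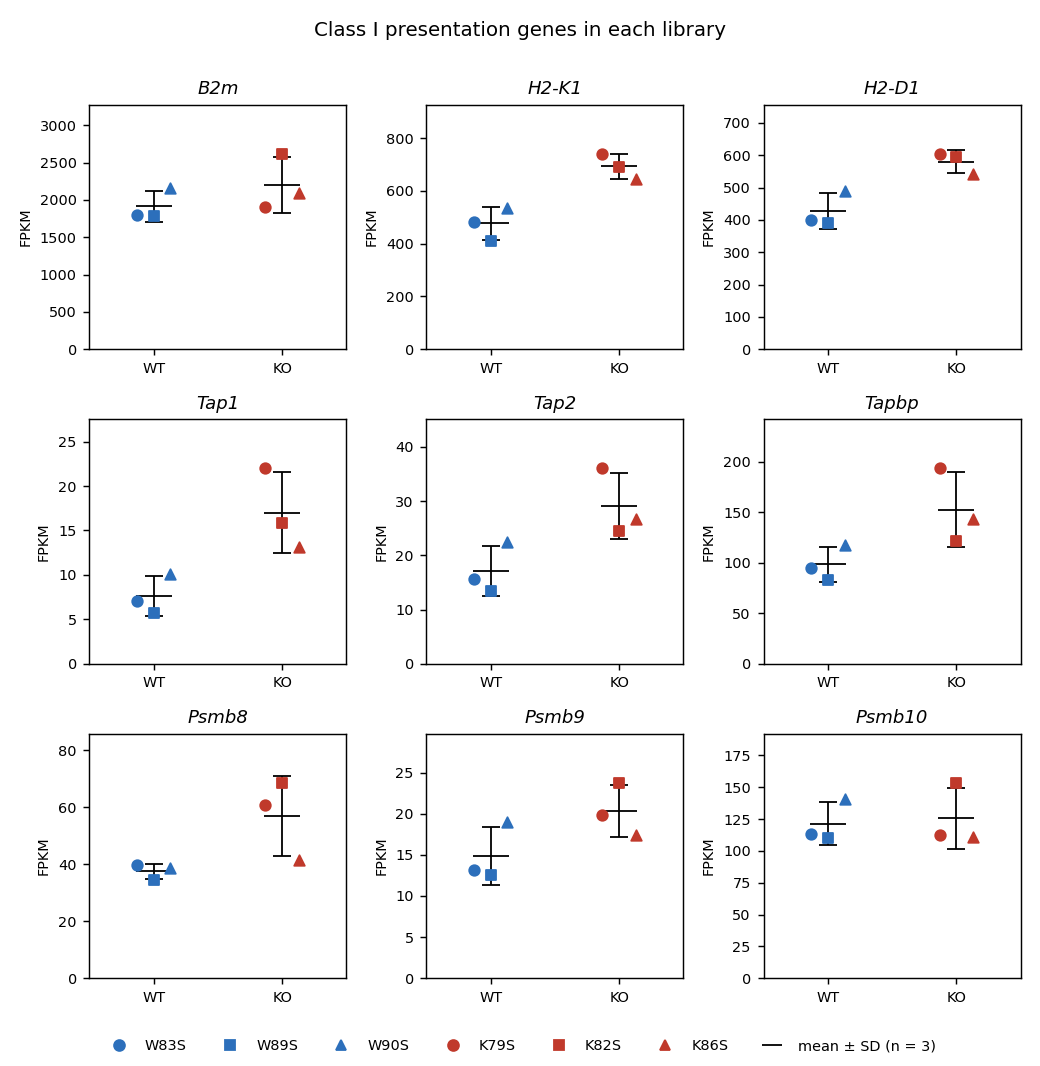
FPKM of the 9 placed members in each library (y axis from 0), with WT libraries in blue and KO libraries in red; lines give the mean and bars the SD of 3 libraries. The KO libraries lie above the WT libraries in H2-K1, H2-D1, Tap1, Tap2, Tapbp and Psmb8 and overlap them in B2m, Psmb9 and Psmb10.

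Among the heavy chains, which bind the peptide, H2-K1 read 740 FPKM in K79S, 692 in K82S and 645 in K86S, and 483 in W83S, 411 in W89S and 537 in W90S. Values of the other genes are given in the same order. All 3 KO libraries lay above the highest WT library, the lowest by 1.20-fold. The means were 692 ± 47.7 and 477 ± 62.9 FPKM (SD, n = 3 each), a log2 difference of 0.54 (SE 0.19, limma adjusted p = 0.393). H2-D1, the other classical heavy chain of this strain, read 604, 596 and 541 FPKM in the KO libraries and 401, 390 and 489.9 FPKM in the WT libraries. Its groups were apart as well, with a log2 difference of 0.45 (SE 0.18, limma adjusted p = 0.393). H2-K1 made up 54.4 ± 0.662% of the summed FPKM of both heavy chains in KO mice and 52.8 ± 1.71% in WT mice (SD, n = 3 each). These shares overlapped, and their difference of 1.63 percentage points had an exact two-sided permutation p = 0.3, where 0.1 is the smallest that 3 against 3 allows. The heavy chains and the genes named H2-Q and H2-T are near copies of each other, and how 50 bp reads were split among them is not given in the sources used here.

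B2m, the light chain shared by all class I molecules, read 1900, 2619 and 2091 FPKM in the KO libraries and 1795, 1791 and 2158 FPKM in the WT libraries. K79S and K86S lay within the WT range and K82S above it. The log2 difference was 0.19 (95% interval -0.31 to 0.70, limma adjusted p = 0.712). Per unit of both heavy chains, B2m stood at 1.41, 2.03 and 1.76 in the KO libraries and at 2.03, 2.24 and 2.10 in the WT libraries, and the ranges met at 2.03. B2m lies wholly within Patl2 on the opposite strand, and the handling of strand is not given in the sources used here.

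The 3 genes of peptide transport and loading had the largest log2 differences among the members in the fit of all 6 libraries. For Tapbp this order depended on single libraries. Without K79S Tapbp stood at 0.43 and Psmb8 at 0.49, and without K86S they stood at 0.65 and 0.77. Tap1, one chain of the peptide transporter, read 21.99, 15.8 and 13.2 FPKM in the KO libraries and 7.05, 5.67 and 10.1 FPKM in the WT libraries. The lowest KO library was 1.30 times the highest WT library. The log2 difference was 1.06 (SE 0.26, 95% interval 0.45 to 1.68, limma adjusted p = 0.393), from 17.0 ± 4.53 and 7.62 ± 2.29 FPKM (SD, n = 3 each). Tap2, its partner chain, read 36.0, 24.4 and 26.7 FPKM in the KO libraries and 15.5, 13.4 and 22.4 FPKM in the WT libraries. K82S stood 1.09-fold above W90S, and the log2 difference was 0.74 (SE 0.24, limma adjusted p = 0.393). Tap2 is overlapped on the opposite strand by Gm20496 over 1923 bp and by Gm15821 over 3148 bp. Tapbp, which holds empty class I molecules at the transporter, read 194, 121 and 143 FPKM in the KO libraries and 94.9, 82.9 and 117 FPKM in the WT libraries. Its groups were 1.03-fold apart at their nearest, with a log2 difference of 0.62 (SE 0.24, limma adjusted p = 0.393). Tapbp shares 3422 bp with Zbtb22 on the same strand, which read from 12.0 to 18.1 FPKM.

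Of the 3 immunoproteasome subunits, Psmb8 was the one whose groups did not overlap. It read 60.6, 68.5 and 41.3 FPKM in the KO libraries and 39.5, 34.6 and 38.5 FPKM in the WT libraries. The WT libraries lay close together and K86S only 1.05-fold above them. The log2 difference was 0.56 (SE 0.22, limma adjusted p = 0.393). Psmb8 is overlapped on the opposite strand by Gm20496 over 2139 bp. Psmb9, whose gene runs head to head with Tap1 and overlaps it over 212 bp, read 19.8, 23.7 and 17.4 FPKM in the KO libraries and 13.2, 12.6 and 18.9 FPKM in the WT libraries. W90S lay above K86S, and the log2 difference was 0.44 (95% interval -0.055 to 0.93, limma adjusted p = 0.407). Psmb10 read 112, 153 and 111 FPKM in the KO libraries and 114, 109.9 and 141 FPKM in the WT libraries. The groups were fully mixed, with a log2 difference of 0.04 (95% interval -0.45 to 0.53, limma adjusted p = 0.945). Psmb10 is overlapped along 2710 bp by an antisense gene.

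The constitutive subunits that they replace had lower means in KO mice, with 0 of 3 at an unadjusted limma p under 0.05. Psmb5, which carries the chymotrypsin-like activity, read 39.2, 53.0 and 40.6 FPKM in the KO libraries and 63.2, 52.4 and 54.4 FPKM in the WT libraries (log2 difference -0.36, limma adjusted p = 0.423). Psmb6, the caspase-like subunit, read 49.9, 68.1 and 52.1 FPKM in the KO libraries and 68.7, 71.9 and 73.8 FPKM in the WT libraries (log2 difference -0.34, limma adjusted p = 0.428). Its KO libraries all lay below the WT libraries, as did those of 11.3% of rows. Psmb7, the trypsin-like subunit, read 11.7, 24.8 and 15.4 FPKM in the KO libraries and 18.3, 26.5 and 24.2 FPKM in the WT libraries (log2 difference -0.44, limma adjusted p = 0.521).

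A ratio of each pair within a library does not depend on the scaling of the library. Psmb8 over Psmb5 was 1.54, 1.29 and 1.02 in the KO libraries and 0.626, 0.659 and 0.708 in the WT libraries, 1.91-fold higher in KO mice as a geometric mean. Psmb8 thus read above Psmb5 in all 3 KO libraries and below it in all 3 WT libraries. Psmb9 over Psmb6 was 0.397, 0.348 and 0.334 in the KO libraries and 0.191, 0.175 and 0.257 in the WT libraries, 1.75-fold higher. Both ratios kept the groups apart, each with an exact two-sided permutation p = 0.1, the smallest possible, or 0.15 adjusted over the 3 ratios. Psmb10 over Psmb7 was 9.58, 6.19 and 7.19 in the KO libraries and 6.21, 4.15 and 5.81 in the WT libraries, 1.42-fold higher, with overlap (exact permutation p = 0.2, adjusted 0.2).

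**Figure D2:**
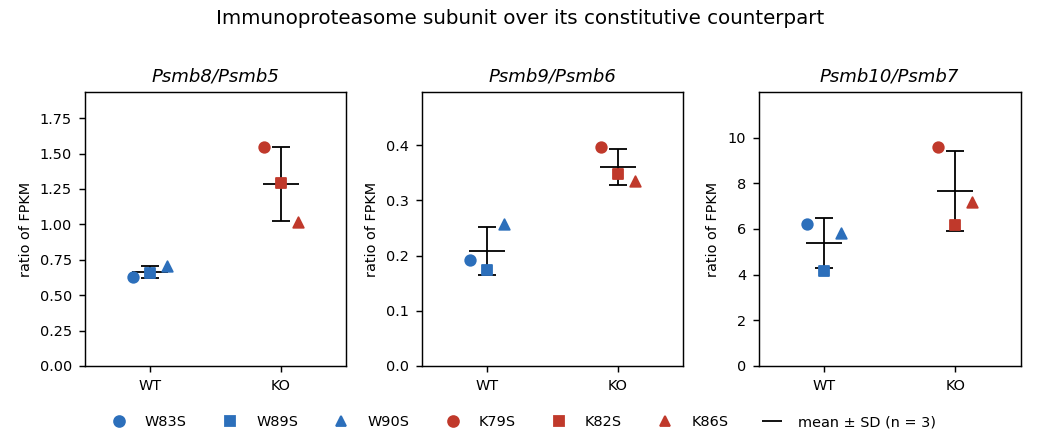
Ratio of FPKM of each immunoproteasome subunit to its constitutive counterpart in each library (y axis from 0), WT in blue and KO in red, with mean and SD of 3 libraries. The KO and WT libraries are apart for Psmb8 over Psmb5 and Psmb9 over Psmb6 and overlap for Psmb10 over Psmb7.

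The members also differed between mice of a genotype. W89S was the lowest of the 6 libraries for 9 of 9 members, and W90S the highest WT library for 8 of 9, Psmb8 being the exception. Among KO mice, K79S was highest for 5 members (H2-K1, H2-D1, Tap1, Tap2 and Tapbp) and K82S for the other 4 (B2m, Psmb8, Psmb9 and Psmb10). Each of these peaks is 1 library, and H2-D1 was nearly equal in K79S and K82S, at 604 and 596 FPKM. Averaged over the 9 members, log2(FPKM + 1) centred on each gene's mean was 0.37 in K79S, 0.32 in K82S and 0.09 in K86S, against -0.31 in W83S, -0.45 in W89S and -0.01 in W90S. K86S, the shallowest library, and W90S were the nearest of any KO and WT library. Tap1 varied the most within a genotype, 1.67-fold among KO and 1.79-fold among WT libraries, and H2-D1 varied 1.12-fold and 1.26-fold.

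The genes with the profile most like the members' mean were sought among 6800 placed genes with a mean of at least 5 FPKM, over the 6 libraries, by the root mean square difference of centred log2 values. They were Arel1 (0.0721), the class I pseudogene H2-T-ps (0.0772), Mfsd9 (0.0809), H2-T23 (0.0833) and H2-Q7 (0.0915). The members themselves lay between 0.0599 for H2-K1 and 0.318 for Tap1. Only H2-K1 and H2-D1 (0.0604) lay nearer to the mean than these 5 genes. The other members lay farther, from 0.111 for Psmb9. Of the 5 genes, 3 belong to the class I family, whose reads may be shared with H2-K1 and H2-D1. The share of this family among the 6800 genes was not counted.

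Of the other genes of the pathway, 55 of 64 were tested and 0 passed. At an unadjusted limma p under 0.05, 13 were higher and 1 lower in KO mice, beside 2.87% and 9.64% of rows. Of the 13 higher genes, 6 were class II genes. Of the nonclassical and class I-like genes, 14 of 17 were tested and 3 were higher at that level, with a median log2 difference of 0.30. H2-Q4 read 68.2, 54.6 and 54.6 FPKM in the KO libraries and 35.4, 32.6 and 51.9 FPKM in the WT libraries. H2-Q7, a Qa-2 gene, read 18.7, 20.6 and 15.1 FPKM in the KO libraries and 11.4, 10.9 and 13.0 FPKM in the WT libraries. H2-T23, which encodes Qa-1 and presents leader peptides of class I chains, read 165, 137 and 134 FPKM in the KO libraries and 98.6, 96.1 and 122 FPKM in the WT libraries. In all 3 genes the groups were apart (3 of 14 tested, beside 5.90% of rows), with log2 differences of 0.57, 0.57 and 0.46 (limma adjusted p = 0.393 each).

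Of the genes of interferon gamma signalling, 14 of 17 were tested and all 14 had a log2 difference above 0, as had 42.3% of all rows, with a median of 0.35. At an unadjusted limma p under 0.05, 4 were higher and 0 lower, beside 2.87% and 9.64% of rows, and 0 passed. Igtp, an interferon-inducible GTPase, read 22.7, 28.6 and 22.4 FPKM in the KO libraries and 12.1, 7.49 and 16.7 FPKM in the WT libraries. Gbp2, a guanylate-binding protein, read 3.60, 13.1 and 4.63 FPKM in the KO libraries and 2.11, 1.89 and 1.15 FPKM in the WT libraries. The groups were apart in both genes, with log2 differences of 1.02 and 1.41 (limma adjusted p = 0.393 each). Irf8, a factor of myeloid and B cells, overlapped between the groups, with 15.9 FPKM in K86S and 16.0 in W90S, and had a log2 difference of 0.55 (limma adjusted p = 0.393). Ifng itself, Cxcl9 and Cxcl10 were not analysed here.

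The factors that bind class I promoters had a median log2 difference of -0.02 over the 8 of 10 tested. Rfxap, a subunit of the RFX complex, read 2.90, 3.19 and 4.05 FPKM in the KO libraries and 5.28, 5.39 and 4.59 FPKM in the WT libraries. Its KO libraries all lay below the WT libraries, and its log2 difference was -0.48 (limma adjusted p = 0.393). Of the 6 loading chaperones and trimming peptidases, 0 were at an unadjusted limma p under 0.05, and their median log2 difference was 0.11. Calr and Pdia3, chaperones of the loading complex, differed by 0.14 and 0.08 on the log2 scale (limma adjusted p = 0.759 and 0.900). The 4 proteasome activator and assembly genes had a median of -0.15, and Psme1 and Psme2, the chains of the interferon-inducible activator, differed by 0.11 and -0.16 (limma adjusted p = 0.834 and 0.737).

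Class II genes present peptides to CD4+ T cells. In all 6 tested, every KO library lay above every WT library, beside 5.90% of the 13089 rows tested. Their log2 differences ran from 1.11 for H2-DMa to 1.35 for Cd74, the invariant chain (limma adjusted p = 0.393 each). H2-Aa, H2-Ab1 and H2-Eb1 stood at 1.31, 1.29 and 1.29. Without K82S, 5 of these 6 passed the test and 0 of the 9 members did, beside 0.400% of 12764 rows that passed as higher in KO mice. Tap1 then had a log2 difference of 1.10 (limma adjusted p = 0.0832), beside 1.06 for H2-DMa and 0.99 for H2-Aa (limma adjusted p = 0.0328 and 0.0761), and Psmb8 one of 0.41 (limma adjusted p = 0.271). Whether class I and class II differences differ from each other was not tested.

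**Figure D3:**
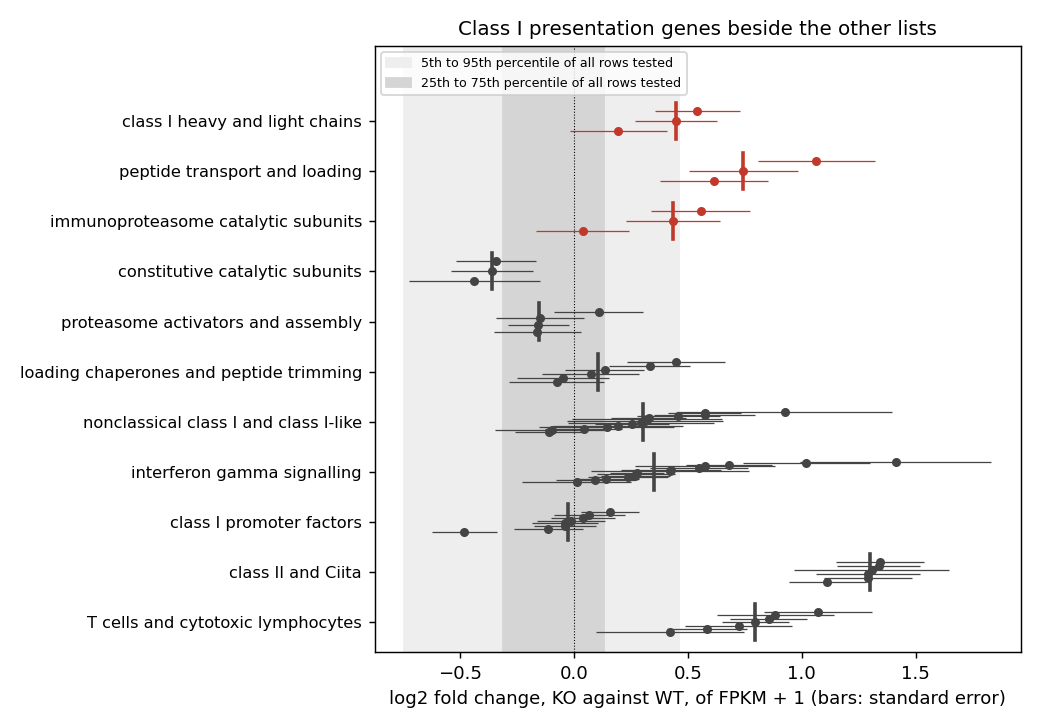
log2 difference of FPKM + 1, KO against WT, of each tested gene by list, with standard errors; red points are members, grey points other lists, and thick ticks list medians. The members' medians by step are 0.45, 0.74 and 0.44, between the constitutive subunits at -0.36 and the class II genes at 1.30; bands span -0.74 to 0.46 (5th to 95th percentile) and -0.31 to 0.13 (25th to 75th) of all rows tested.

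Markers of T cells and cytotoxic lymphocytes, of which Cd8a, Gzma, Gzmb and Itgae are also carried by gamma-delta T cells and innate lymphocytes, had higher means in KO mice. The summed FPKM of the 7 of 9 listed markers that could be placed was 160 in K79S, 230 in K82S and 159 in K86S, and 117 in W83S, 75.2 in W89S and 98.8 in W90S, and none of the 7 was at 0 in all libraries. The order of the libraries was not that of the members in full, since K79S and K86S had nearly equal sums and W83S a higher sum than W90S. Gzma, a granule protease of cytotoxic cells, was the largest part of the sum, at 98.8, 147 and 99.8 FPKM in the KO libraries and 76.2, 46.5 and 63.6 FPKM in the WT libraries. Of the 7 markers 0 passed the test. Cd8a, Cd3e, Cd3g, Gzma, Gzmb and Itgae (6 of 7, beside 5.90% of rows) had all KO libraries above all WT libraries (limma adjusted p = 0.393 each), and Trac overlapped (limma adjusted p = 0.591). Without K82S, 2 of the 7 passed, Cd3e with a log2 difference of 0.69 and Itgae with 0.71 (limma adjusted p = 0.0367 and 0.0398). Beside them 1184 of 12764 rows passed without K82S in either direction, and 0.400% passed as higher in KO mice. The leukocyte sum (4 of 5 markers) was 29.3, 93.0 and 31.4 in the KO libraries and 23.5, 43.5 and 58.1 in the WT libraries. The macrophage and dendritic sum (6 of 7) was 56.4 to 186 in KO and 80.2 to 233 in WT mice. Lyz2 set the spread of the macrophage and dendritic sum, from 17.5 to 184 FPKM with a lower mean in KO mice. In the same list Csf1r and Itgax (2 of 6, beside 5.90% of rows) had all KO libraries above all WT libraries, with log2 differences of 0.49 and 0.38 (limma adjusted p = 0.393 each). The plasma and B cell sum (5 of 8) was 68.3, 241 and 133 in the KO libraries and 88.0, 103 and 112 in the WT libraries. So the leukocyte sum and the plasma and B cell sum were highest in K82S among KO and in W90S among WT libraries. The plasma and B cell markers did not all go the same way. Among WT libraries, Mzb1, Cd79a and Cd79b were highest in W90S. Jchain, the largest part of the sum, and Derl3 were lowest there, with Jchain at 59.4 FPKM in W90S and 76.7 in W83S. The smooth muscle sum (3 of 6) was 13.4 to 29.1 in KO and 10.6 to 33.6 in WT mice. The 2 placed acinar markers of 8 summed to 2311 FPKM in W83S and at most 2.02 in the others. Nearly all of the W83S sum was Pla2g1b, at 2309 FPKM. Ctrb1, the other placed marker, read 2.11 FPKM in W83S, and the sum thus rests on 1 gene. The part of these cells in the members' values was not tested.

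**Figure D4:**
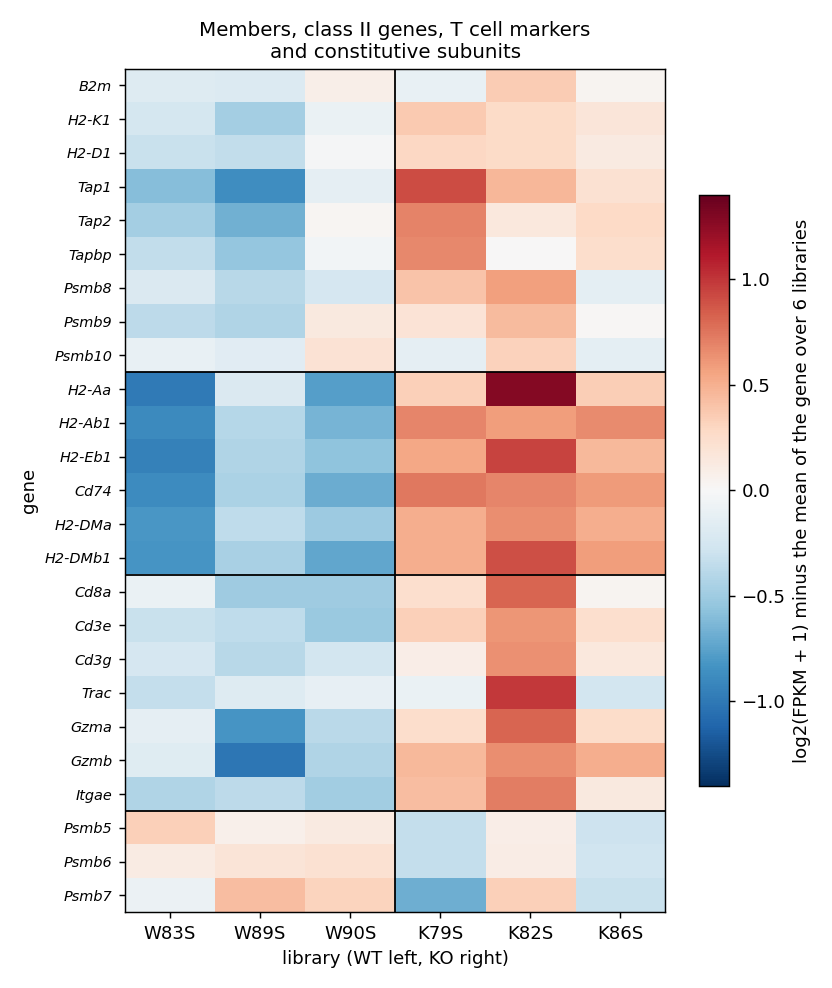
log2(FPKM + 1) minus the gene's mean over the 6 libraries, by library (WT left, KO right), for the members, class II genes, T cell markers and constitutive subunits from top to bottom. The members average 0.37, 0.32 and 0.09 in the KO and -0.31, -0.45 and -0.01 in the WT libraries.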

How the data were processed

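RNA of the middle small intestinal mucosa of 3 alk-SMase KO and 3 WT mice was analysed, with 1 library per mouse and groups taken from the genotype labels. The authors trimmed 50 bp single-end reads, mapped them to mm10 with HISAT2, quantified genes with StringTie and deposited FPKM values, which are divided by gene length and mapped reads. Tool versions, annotation and strand handling are not given in the sources used here. FPKM holds no read counts, so no count model or counting interval was used, and precision rests on the spread between mice. There were 0 unmapped columns.

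Identifiers were moved to their rows by ranking identifiers on K79S and rows on W83S, with fixed small offsets. Of the placed genes, single-transcript ones had at most 6 decimals in 99.7% of 3649, and others in 5.80% of 8748. A row was left out if over 4 libraries stood below 1 FPKM, and log2(FPKM + 1) was fitted with limma 3.58.1 (lmFit, eBayes with trend, Benjamini-Hochberg over 13089 rows) in R 4.3.3. A fold change on this scale understates that of low genes. Ratios and shares were tested by exact permutation in Python 3.11.15 with scipy 1.17.1. The scripts were tested on simulated data.

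Members and lists were chosen with earlier results of these data known. Of each pathway list, genes at an unadjusted p under 0.05 were named, or otherwise the 2 with the highest mean FPKM; class II genes, Enpp7 and the 5 most alike genes were named as well. Ciita, like Nlrc5, was not analysed here, and 1 gene that the rule names is not reported here. The motif for interferon regulatory factors was chosen after a first form had been looked at. Alternatives were other pseudocounts, filters and scalings, array weights and leaving out libraries.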

Additional observations from a re-analysis of the deposited data

How the results depend on the processing

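Each of the 9 members was refitted under 14 alternatives, which gave 126 values, of which 121 kept their direction, 5 reversed and 0 passed the test (lowest limma adjusted p = 0.0763). The 5 reversals were all in Psmb10. They were -0.10 with array weights and -0.15 without K82S and W83S together (chosen after seeing the data). The others were -0.11 without K82S, -0.003 without W83S and -0.027 without W89S. With 1 library left out Psmb10 ranged from -0.11 to 0.15. Rows past the thresholds numbered 1 in the reported fit, 0 at pseudocounts of 0.1 and 0.01 (1636 and 1619 at an unadjusted limma p under 0.05), 2 with array weights, 1111 without K82S and W83S and from 0 to 1184 with 1 library left out, where 1184 is without K82S. Of these 1184, 51 were higher in KO mice. Members higher in KO mice at an unadjusted p under 0.05 numbered 6, from 1 to 6 with 1 library left out (1 without K79S, W83S or W89S) and 3 without K82S and W83S. Rows at this level in either direction numbered 1638 in the reported fit. They ranged from 671 to 3284 with 1 library left out, and were 2986 without K82S and W83S. Pathway genes past the thresholds numbered 0, and from 0 to 5 with 1 library left out. The 5 were those without K82S, all of them class II genes that were higher in KO mice. Beside them 1184 of 12764 rows passed in either direction, and 0.400% passed as higher. Without K82S and W83S 4 pathway genes passed, beside 1111 of 12510 rows. The cause was not tested. The summed FPKM was 393152, 465901 and 421135 in the KO libraries and 483474, 495362 and 473383 in the WT libraries, without overlap. The shares of rows given above are from fits without scaling to this sum. Scaling libraries to the same summed FPKM moved the median log2 difference of all rows from -0.06 to 0.08, and centring on the median to 0.02, and the 9 members stayed above 0 under both. The log2 ratio of Psmb8 to Psmb5 ranged from 0.79 to 1.09 with 1 library left out, that of Psmb9 to Psmb6 from 0.69 to 0.97 and that of Psmb10 to Psmb7 from 0.33 to 0.64. The difference in the H2-K1 share ranged from 0.925 to 2.58 percentage points. No paired analysis was possible because, although the mice were matched in pairs, the labels give no number that ties a KO mouse to a WT mouse. Depth limits K86S most, whose values rest on the fewest reads.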
